A study of Mus musculus with 12 samples.

Results

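The proteasome genes of mouse brown fat were compared between animals after 24 h of cold and separate ctrl animals. These genes comprised 53 of the 54356 genes in the files. They were every protein-coding gene whose GENCODE M21 symbol starts with Psma, Psmb, Psmc, Psmd, Psme, Psmf or Psmg. Nfe2l1, Ddi2 and Pomp were added to them. By role these were 8 alpha and 7 constitutive beta subunits of the 20S core, 4 immune or thymic beta subunits, 6 ATPase and 11 non-ATPase subunits of the 19S cap, 3 chaperones of 19S assembly, 5 activators, the regulator Psmf1, 5 factors of 20S assembly, the pair Nfe2l1 and Ddi2, and Psmc3ip, a meiotic recombination factor that the symbol rule brings in. Enough reads for a test were found for 51 of the 53. The remaining pair were Psma8, a testis subunit with at most 0.0646 CPM (counts scaled to a common library size) in cold and 0 reads in every ctrl library, and Psmb11, the thymic subunit, with at most 0.437 CPM in cold and 0.653 CPM in ctrl.

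Interscapular brown adipose tissue, the heat-producing fat between the shoulder blades, came from male wild type C57BL/6N mice aged 20 weeks. The cold group held 6 animals kept singly at 4 °C for the last 24 h, and the ctrl group held 6 animals of a colony kept at 22 to 24 °C. The text on single housing in the cold is attached to all 12 animals and is read here as meant for those labelled cold; if ctrl animals shared cages, the effects of cold and of being housed alone cannot be told apart. Whole tissue from 1 animal made each library, so the p-values measure the spread between animals. The labels name 6 cold animals, although the series' own description counts 3. Estimated reads per library ranged from 17.0 to 31.4 M in cold and from 16.0 to 26.8 M in ctrl.

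The proteasome degrades proteins that carry ubiquitin chains. Its 20S core is a barrel of alpha rings, which gate the entry, around beta rings, of which Psmb5, Psmb6 and Psmb7 cut peptide bonds; the 19S cap recognises the chains, unfolds the substrate with its ATPases and feeds it in. Interferon exchanges the cutting subunits for Psmb8, Psmb9 and Psmb10, which favours peptides for display to T cells, and induces the activator pair Psme1 and Psme2. Nfe2l1 is a transcription factor made at the endoplasmic reticulum. When proteasome capacity is short it escapes degradation, loses its sugars to Ngly1, is cut by the protease Ddi2 and switches on proteasome subunit genes, largely without need for a change of its own mRNA. In mouse brown adipocytes it is known to be needed for proteasome activity to keep pace with cold.

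The labels give interscapular brown fat as the tissue of all 12 animals, while the extraction text attached to them names eWAT. The summed level of 7 brown adipocyte genes was 14615 to 17621 CPM in cold and 10380 to 15661 CPM in ctrl. Most of it was Ucp1, with a mean of 10071 CPM in cold and 8629 CPM in ctrl. By the test given below, 3 of these genes were higher in cold (Cidea, Dio2 and Ppargc1a) and 1, Adipoq, was lower. The other 3 (Ucp1, Plin1 and Prdm16) did not pass. The summed level of 10 skeletal muscle genes ran from 185 to 4272 CPM in cold and from 168 to 1463 CPM in ctrl. Macrophage genes (8) summed to 58.8 to 85.6 CPM in cold and 47.7 to 80.7 CPM in ctrl, genes shared by leukocytes (4) to 11.1 to 20.2 and 13.1 to 24.0 CPM, and T, NK and B cell genes (8) to 1.55 to 3.79 and 2.62 to 6.23 CPM. Of those 8 lymphocyte genes, 1 had enough reads for a test.

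The library cold 4, the most deeply sequenced, stood apart from the other cold libraries. It held the highest level of any library for 36 of the 51 tested genes, and for 28 of the 31 tested 20S and 19S subunits. Its difference from the other cold libraries moved with gene length. Over all genes its median log2 difference was 0.40 for genes with an effective length under 1000 nt (the length from which reads can start), 0.08 between 1000 and 3000 nt and -0.30 above 3000 nt. For the proteasome genes in those classes it was 0.57, 0.33 and -0.54 (22, 26 and 3 genes). No other library departed from its group by more than 0.19 in any class over all genes. Ctrl 6 moved with length in the same direction, less strongly, with 0.19, 0.04 and -0.11 over all genes. For the proteasome genes its values were 0.31, 0.16 and -0.10. It was kept in the fits without cold 4. The main results below are therefore given with and without cold 4; the part of gene length in the results was not tested.

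**Figure D1:**
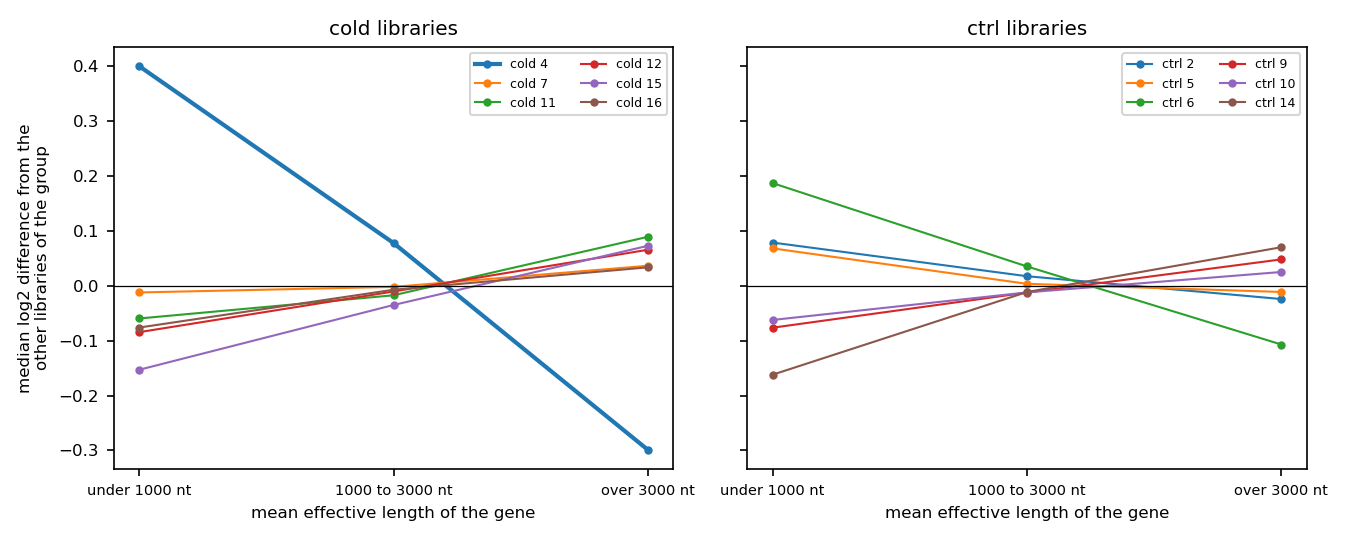
Median log2 difference of each library from the mean of the other libraries of its group (y axis) for all tested genes in 3 classes of effective length (x axis), with cold libraries on the left and ctrl libraries on the right. Cold 4 falls across the classes, with 0.40 for the shortest genes and -0.30 for the longest.

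Cold changed a minority of the proteasome genes, in both directions. Of the 51 tested, 8 were higher in cold (Psma1, Psma6, Psmc2, Psmd3, Psmd12, Psme3, Psme4 and Psmg2) and 3 were lower (Psmb9, Psme1 and Psme2), at a p under 0.05 from edgeR's quasi-likelihood test after Benjamini-Hochberg correction over all 13876 genes tested. That is 15.7% higher and 5.88% lower, where 16.2% of all genes tested were higher and 15.4% lower. With this scaling (TMM) and all animals the share of higher calls was near that of all genes. The median log2 fold change, cold over ctrl, was 0.10 over the 51 genes and -0.01 over all genes. Of the 51, 39 (76.5%) had a positive value, against 49.0% of all genes. Without cold 4, 29 of the 51 were positive and their median was 0.04, where the median over all genes was -0.01. Cold and ctrl ranges did not overlap for 6 of the 51 (Psma6, Psmd2, Psmd3, Psmd12, Psme2 and Psme3), and for 16.3% of all genes. In whole tissue, fewer cells of a type and less RNA per cell cannot be told apart.

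Without cold 4, 10 members were higher and 6 lower, where 18.6% of 14035 genes were higher and 17.7% lower. Ddi2, Nfe2l1 and Psmd2 joined the higher genes and Psmg2 left them, while Psma3, Psmb8 and Psmb10 joined the lower ones. Scaling by library totals gave 16 members higher (31.4%, where 20.9% of all genes were higher) and 3 lower (where 10.2% were lower); under it 67.3% of all called genes were higher in cold, against 51.3% with TMM. With the mouse number as a covariate 13 members were higher (25.5%, where 16.7% of all genes were higher) and 3 lower (where 15.3% were lower). In each of the 22 alternatives, which include leaving out each animal in turn, Psma1, Psma6, Psmc2, Psmd12, Psme3 and Psme4 were higher and Psmb9, Psme1 and Psme2 lower.

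**Figure D2:**
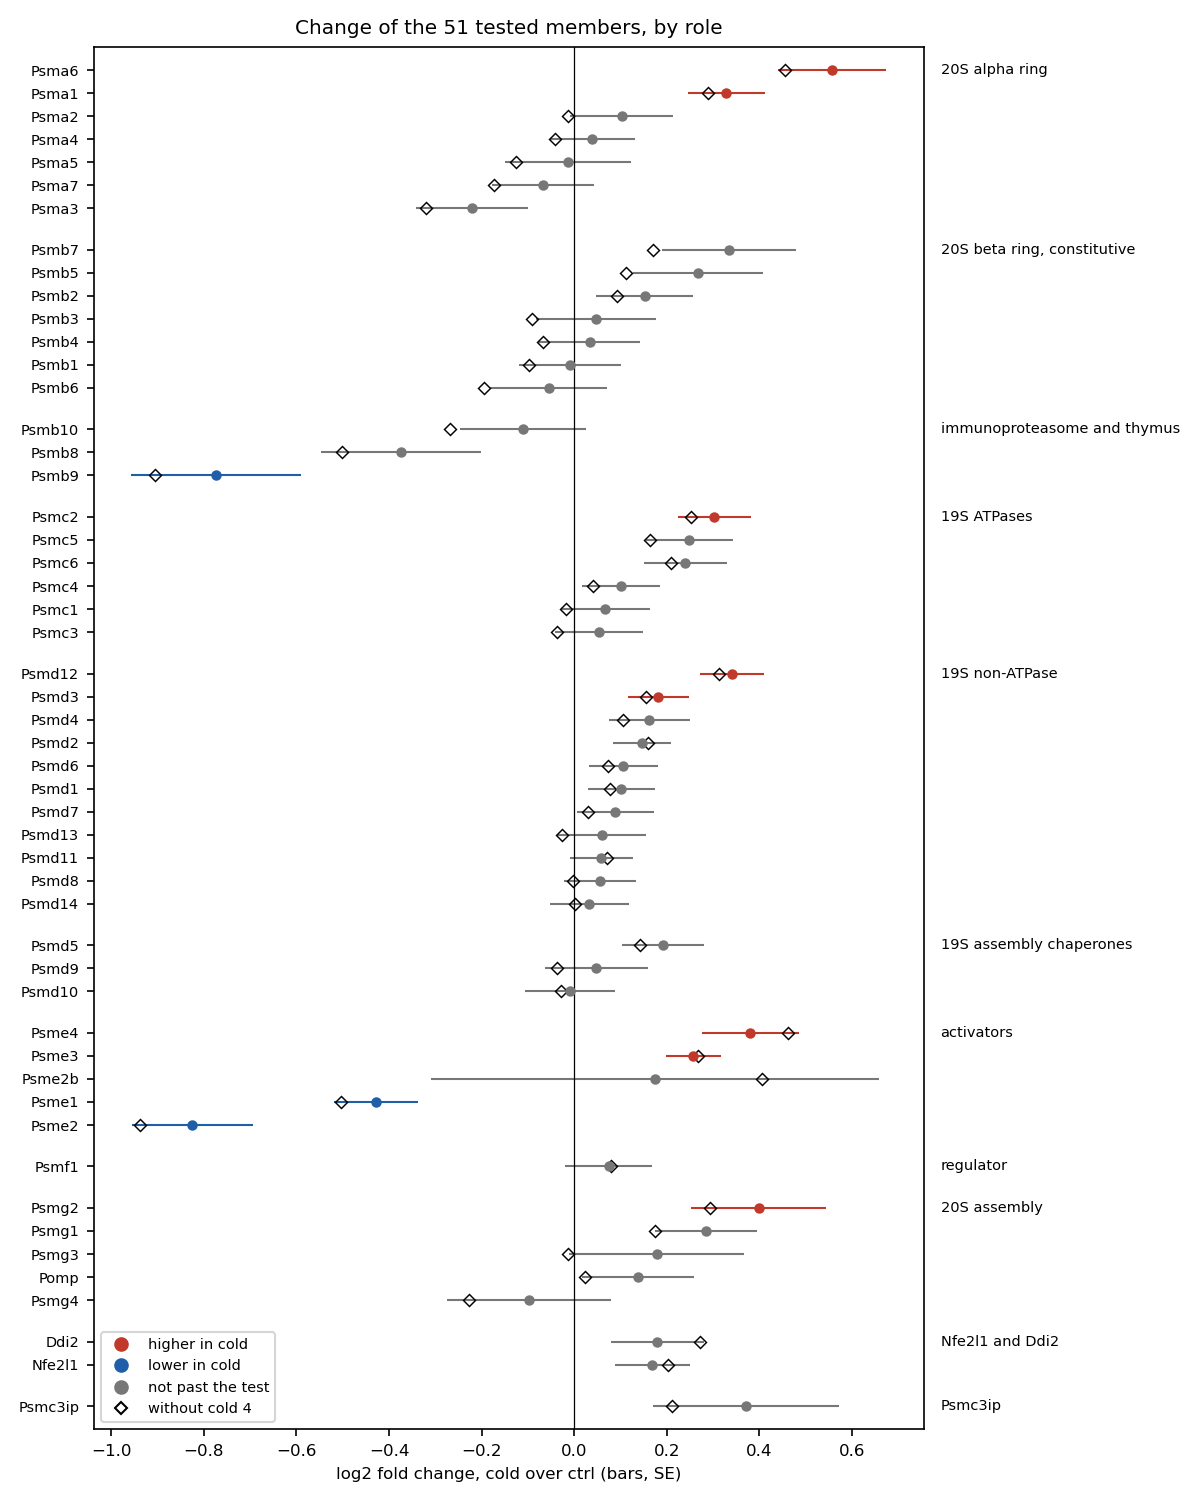
Log2 fold change of cold over ctrl (x axis) for the 51 tested genes by role, with bars for the SE, red for higher, blue for lower and grey for genes that did not pass the test; open diamonds are the values without cold 4. The 3 genes lower in cold, Psmb9, Psme1 and Psme2, lie between -0.43 and -0.83, and for most subunits the diamond lies left of the point.

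Nfe2l1 itself was the most abundant of the 51 mRNAs per unit length in ctrl. Its lowest, median and highest values were 596, 655 and 742 CPM in cold and 547, 578 and 690 CPM in ctrl. The ranges overlapped widely, with ctrl 10 above 4 of the 6 cold animals. The means were 666 ± 50.6 CPM in cold and 592 ± 53.0 CPM in ctrl (SD, n = 6 each). On the log2 scale cold exceeded ctrl by 0.17 ± 0.08 (SE), with an adjusted p of 0.123 (edgeR). Without cold 4, the lowest of the cold animals, it was 0.20 ± 0.07 (adjusted p = 0.0435, edgeR), and without ctrl 10, the highest of the ctrl animals, 0.22 (adjusted p = 0.0482, edgeR). It passed the test in those 2 of the 22 alternatives. Of its 12 annotated transcripts 7 had enough reads for a test, with adjusted p-values of 0.218 or more, and the gene test of transcript usage gave an adjusted p of 0.830 (edgeR).

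Ddi2, the protease that cuts Nfe2l1, had a lowest, median and highest level of 46.8, 70.5 and 78.8 CPM in cold and 56.8, 61.0 and 63.4 CPM in ctrl. The other 5 cold animals, at 68.7 to 78.8 CPM, were above every ctrl animal, and cold 4 was below every one. With all animals the log2 fold change was 0.18 ± 0.10 (adjusted p = 0.192, edgeR), and without cold 4 it was 0.27 ± 0.06 (adjusted p = 0.00168, edgeR). Ddi2 has the longest effective length of the 53 genes, 8351 nt. An offset for the estimated length in each library, relative to the gene's own mean length, gave 0.43 (adjusted p = 0.0428, edgeR). A length shared by all libraries drops out of that offset, so it was no correction for the length trend of cold 4. Per kb of effective length, cold 4 was still the lowest library for Ddi2, at 5.12 CPM per kb.

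Among the alpha subunits, which form the outer rings of the core, Psma6 and Psma1 rose and the other 5 tested did not pass the test. Psma6 had a lowest, median and highest level of 136, 154 and 221 CPM in cold and 94.1, 112 and 131 CPM in ctrl. Every cold animal was above every ctrl animal. The gene lies on chromosome 12 at 55384222 to 55418454 (GRCm38, plus strand, whole gene). The means were 163 ± 32.4 CPM in cold and 111 ± 12.7 CPM in ctrl (SD, n = 6 each). On the log2 scale this was a rise of 0.56 ± 0.12 (adjusted p = 0.00154, edgeR). It was 0.45 ± 0.09 without cold 4 (adjusted p = 7.56e-04, edgeR). It was the largest rise of the tested members with all animals; without cold 4 that was Psme4, with 0.46. Psma1 had 92.7, 103 and 119 CPM in cold and 75.0, 78.9 and 96.9 CPM in ctrl. Only ctrl 14, at 96.9 CPM, reached into the cold range. The log2 fold change was 0.33 ± 0.08 (adjusted p = 0.00601, edgeR), and 0.29 ± 0.08 without cold 4 (adjusted p = 0.00669, edgeR). Psma3 stood at the other end of the ring with -0.22 ± 0.12 (adjusted p = 0.186, edgeR), and at -0.32 ± 0.10 without cold 4 (adjusted p = 0.0186, edgeR). The alpha subunits thus did not move as a block: their log2 fold changes ran from -0.22 to 0.56. Of the 7, 4 were positive (57.1%, against 49.0% of all genes) and 2 were called higher (28.6%, against 16.2% of all genes). Without cold 4, 2 of the 7 were positive, with a median of -0.04. In that fit 2 were called higher and 1, Psma3, lower, where 18.6% of all genes were higher and 17.7% lower.

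The 7 constitutive beta subunits did not pass the test (0 of 7 by edgeR, DESeq2 and limma-voom; 1, Psmb7, had an unadjusted p under 0.05). Psmb5 passed in 2 of the 22 alternatives, with library totals (0.35, adjusted p = 0.0491, edgeR) and with the mouse number (0.39, adjusted p = 0.00684, edgeR). Psmb7 passed in 3, with library totals (0.42, adjusted p = 0.0201, edgeR), the skeletal muscle covariate (0.40, adjusted p = 0.0294, edgeR) and the mouse number (0.47, adjusted p = 0.00151, edgeR). Psmb5, the chymotrypsin-like subunit, had a lowest, median and highest level of 119.6, 126 and 216 CPM in cold and 102, 116 and 145 CPM in ctrl. Cold 4 alone was above the ctrl range, and the log2 fold change was 0.27 ± 0.14 (adjusted p = 0.164, edgeR), and 0.11 ± 0.09 without cold 4 (adjusted p = 0.333, edgeR). Psmb7, the trypsin-like subunit, had 151, 167 and 291 CPM in cold and 123, 152 and 167 CPM in ctrl. Here too cold 4 was far above the others, the next being cold 7 at 191 CPM. The log2 fold change was 0.33 ± 0.15 (adjusted p = 0.0936, edgeR), and 0.17 ± 0.09 without cold 4 (adjusted p = 0.139, edgeR). Psmb6, the caspase-like subunit, had 66.8, 71.3 and 114 CPM in cold and 69.4, 80.0 and 96.5 CPM in ctrl. The cold median lay below the ctrl median while cold 4 lay above every ctrl animal, and the log2 fold change was -0.05 ± 0.13 (adjusted p = 0.783, edgeR) or -0.20 ± 0.08 without cold 4 (adjusted p = 0.0585, edgeR). The other 4 (Psmb1, Psmb2, Psmb3 and Psmb4) lay between -0.01 and 0.15.

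In the 19S cap the 6 ATPases and the 11 other subunits all had a positive log2 fold change, where 49.0% of all genes had one. Of these 17, 3 passed the test (17.6%, where 16.2% of all genes were higher). Without cold 4, 4 of the 6 and 9 of the 11 were positive. Psmc2, an ATPase of the ring that unfolds substrates, had a lowest, median and highest level of 65.2, 71.7 and 86.1 CPM in cold and 54.1, 58.6 and 65.6 CPM in ctrl. The ranges touched only at cold 11 and ctrl 6. Its log2 fold change was 0.30 ± 0.08 (adjusted p = 0.0079, edgeR) and 0.25 ± 0.07 without cold 4 (adjusted p = 0.00755, edgeR). Psmc6, another of the ATPases, had 49.8, 64.4 and 70.6 CPM in cold and 44.8, 54.2 and 58.9 CPM in ctrl, and a log2 fold change that came to 0.24 ± 0.09 (adjusted p = 0.0503, edgeR), or 0.21 ± 0.09 without cold 4 (adjusted p = 0.0672, edgeR). Its value lay at the threshold, and it passed in 8 of the 22 alternatives.

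Psmd12, a subunit of the lid that removes ubiquitin, had a lowest, median and highest level of 76.6, 80.6 and 90.0 CPM in cold and 57.8, 64.5 and 71.2 CPM in ctrl. The groups did not overlap, and the cold values other than that of cold 4 were close together, at 76.6 to 81.5 CPM. The means were 81.1 ± 4.75 CPM in cold and 64.1 ± 4.85 CPM in ctrl (SD, n = 6 each). On the log2 scale it rose by 0.34 ± 0.07 with cold 4 (adjusted p = 0.0012, edgeR) and 0.31 ± 0.06 without it (adjusted p = 9.16e-04, edgeR). Psmd3, another lid subunit, had 159.6, 162 and 185 CPM in cold and 143, 146 and 156 CPM in ctrl. The groups did not overlap, and the log2 fold change was 0.18 ± 0.07 (adjusted p = 0.0426, edgeR), or 0.15 ± 0.06 without cold 4. That call was lost when any 1 of 9 of the 12 animals was left out and held only without cold 4, cold 15 or ctrl 6 (adjusted p from 0.0421 to 0.0802 over the 12). Psmd2, a scaffold subunit of the base named after its values were seen, also had no overlap, with 165.6 to 182 CPM in cold and 147 to 164 CPM in ctrl, and its log2 fold change was 0.15 ± 0.06 (adjusted p = 0.0861, edgeR), or 0.16 ± 0.06 without cold 4 (adjusted p = 0.0409, edgeR). The 3 chaperones that help build the base, Psmd5, Psmd9 and Psmd10, did not pass the test; Psmd5 had the smallest p of them, with 15.3 to 20.4 CPM in cold, 13.5 to 17.0 CPM in ctrl and a log2 difference of 0.19 ± 0.09 (adjusted p = 0.114, edgeR). With the effective length offset the Psmd5 value was -0.10.

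Summed over the 32 constitutive 20S and 19S subunits, the level was 3108 ± 406 CPM in cold and 2820 ± 212 CPM in ctrl (SD, n = 6 each). Cold 4 alone held 3917 CPM, and the mean of the other 5 cold animals was 2947 ± 99.7 CPM. Those 5 lay between 2879 and 3121 CPM, and ctrl 6, at 3206 CPM, was above all 5. Of the 31 tested subunits 26 (83.9%) had a positive log2 fold change, against 49.0% of all genes, with a median of 0.10. Without cold 4 it was 18 of 31, with a median of 0.04, where the median over all genes was -0.01. Without ctrl 6 the median of these subunits was 0.13.

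Of the 3 immune beta subunits tested, Psmb9 fell in cold, and Psmb8 and Psmb10 had negative values that passed the test only when single animals were left out. Psmb9 had a lowest, median and highest level of 2.84, 3.33 and 5.23 CPM in cold and 4.73, 6.20 and 7.96 CPM in ctrl. Only cold 4 reached into the ctrl range. The means were 3.67 ± 0.952 CPM in cold and 6.30 ± 1.41 CPM in ctrl (SD, n = 6 each), from 55 to 162 reads per cold library and 78 to 201 per ctrl library, and the log2 fold change was -0.77 ± 0.18 (adjusted p = 0.00392, edgeR), or -0.90 ± 0.17 without cold 4 (adjusted p = 6.75e-04, edgeR). Psmb8 had 5.39, 7.82 and 11.6 CPM in cold and 6.40, 11.1 and 12.5 CPM in ctrl. The groups overlapped through cold 4 and ctrl 14, and the log2 fold change of -0.37 ± 0.17 did not pass the test (adjusted p = 0.115, edgeR). It passed without cold 4 (-0.50 ± 0.16, adjusted p = 0.0219, edgeR) and without ctrl 14 (-0.48, adjusted p = 0.0246, edgeR). Psmb10 had 11.1, 13.8 and 22.8 CPM in cold and 13.7, 16.8 and 17.0 CPM in ctrl. Cold 4 was above all ctrl animals, and the other 5 cold animals were below 5 of the 6 ctrl animals. Its log2 fold change was -0.11 ± 0.14 (adjusted p = 0.581, edgeR), and -0.27 ± 0.09 without cold 4 (adjusted p = 0.0295, edgeR).

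Each immune subunit was also set against the constitutive subunit whose place it takes, within the same library, so that the scaling between libraries drops out. The log2 ratio of the counts of Psmb10 to Psmb7 was -3.64 ± 0.12 in cold and -3.19 ± 0.18 in ctrl (SD, n = 6 each). All 6 cold animals lay below every ctrl animal, a difference of -0.45 (exact two-sided permutation p = 0.00216, the smallest that 6 against 6 animals allow). Of the levels behind this ratio, that of Psmb10 had a log2 fold change of -0.11 and that of Psmb7 one of 0.33, so with all animals more of the difference lay in higher Psmb7; without cold 4 the values were -0.27 for Psmb10 and 0.17 for Psmb7. For Psmb8 to Psmb5 the ratio was -4.12 ± 0.25 in cold and -3.50 ± 0.27 in ctrl. Of the cold animals 4 lay below every ctrl animal, and the difference was -0.62 (exact two-sided permutation p = 0.00649). For Psmb9 to Psmb6 it was -4.41 ± 0.26 in cold and -3.70 ± 0.28 in ctrl, a difference of -0.72 (exact two-sided permutation p = 0.00649). All 3 had an adjusted p of 0.00649 over the 3 ratios tested, and without cold 4 the differences were -0.60, -0.71 and -0.44 in the order Psmb8, Psmb9 and Psmb10. Cold 4 thus did not stand apart in these ratios as it did in the levels. Per unit length (TPM), Psmb8 stood at 4.49 ± 0.59% of Psmb5 in cold and 7.18 ± 1.41% in ctrl, Psmb9 at 2.42 ± 0.47% of Psmb6 in cold and 4.26 ± 0.93% in ctrl, and Psmb10 at 13.5 ± 1.94% of Psmb7 in cold and 17.7 ± 2.47% in ctrl.

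**Figure D3:**
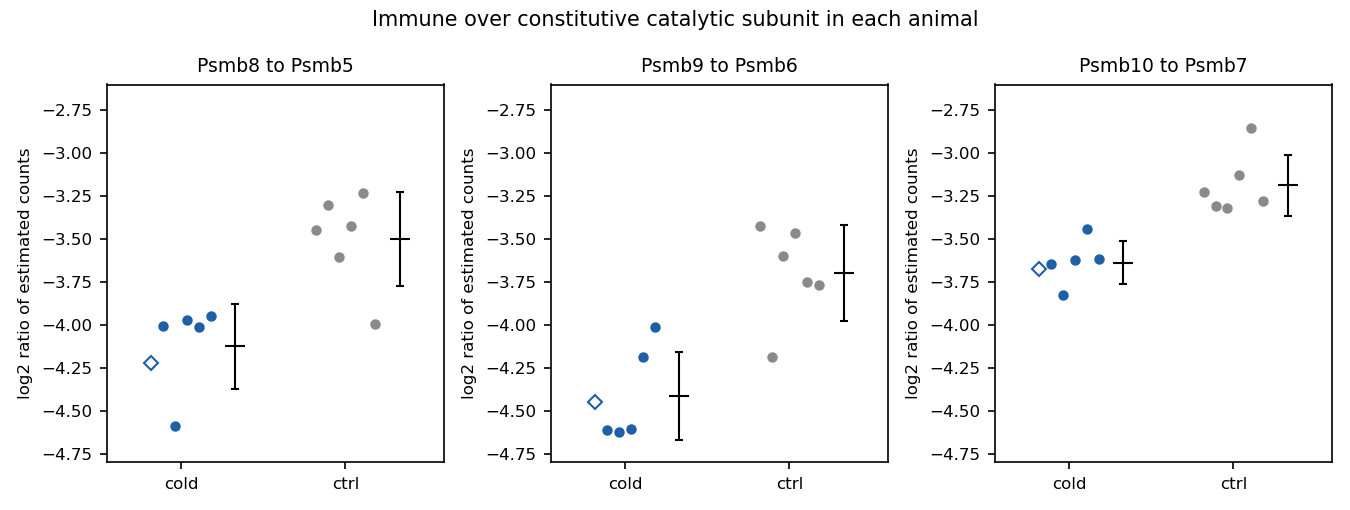
Log2 ratio of the estimated counts of each immune beta subunit to the constitutive subunit it replaces (y axis) in each animal, with cold left of ctrl; the open diamond is cold 4 and the bars are mean and SD. For Psmb10 to Psmb7 the 6 cold animals lie at or below -3.44 and the 6 ctrl animals at or above -3.32.

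The activators split by kind. Psme2, the beta chain of the interferon-induced ring that opens the core, had a lowest, median and highest level of 42.8, 54.6 and 78.4 CPM in cold and 86.4, 98.3 and 115.5 CPM in ctrl. No cold animal reached the ctrl range, cold 4 included. The means were 56.5 ± 12.3 CPM in cold and 100.2 ± 14.0 CPM in ctrl (SD, n = 6 each), the largest fall of the tested members. On the log2 scale this was -0.83 ± 0.13 (adjusted p = 1.76e-04, edgeR) and -0.94 ± 0.10 without cold 4 (adjusted p = 4.95e-06, edgeR). Psme1, the alpha chain of the same ring, had 52.0, 55.9 and 74.5 CPM in cold and 72.3, 78.4 and 89.7 CPM in ctrl. The 5 cold animals other than cold 4 were at or below 62.5 CPM, under every ctrl animal. The fall came to -0.43 ± 0.09 on the log2 scale (adjusted p = 0.00172, edgeR), and to -0.50 ± 0.07 without cold 4 (adjusted p = 3.12e-05, edgeR). The 2 genes lie 5.91 kb apart on chromosome 14 (GRCm38), on opposite strands, and Psme1 overlaps Emc9 on the opposite strand. The libraries were strand-specific, per the labels, and whether the counting used the strand is not stated. Psme2b, a close copy of Psme2 with 2 to 32 reads per library, may share reads with it and did not pass the test.

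Psme3 and Psme4, activators that act in the nucleus and are not part of the interferon set, rose in cold (both named after their values were seen). Psme3 had a lowest, median and highest level of 88.6, 92.2 and 97.5 CPM in cold and 73.9, 77.7 and 81.0 CPM in ctrl. The groups did not overlap. Its log2 fold change was 0.26 ± 0.06 with cold 4 (adjusted p = 0.003, edgeR) and 0.27 ± 0.05 without it (adjusted p = 0.00104, edgeR). Psme4 had 64.2, 92.1 and 98.8 CPM in cold and 55.8, 68.8 and 80.3 CPM in ctrl. Cold 4 lay within the ctrl range and the other 5 cold animals, at 87.3 CPM or more, above it. The log2 fold change was 0.38 ± 0.11 (adjusted p = 0.0111, edgeR) and 0.46 ± 0.08 without cold 4 (adjusted p = 2.45e-04, edgeR). Psmf1, a regulator that binds the core, had 14.1 to 18.7 CPM in cold and 13.7 to 19.2 CPM in ctrl, and its log2 fold change was 0.07 ± 0.09 (adjusted p = 0.592, edgeR).

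**Figure D4:**
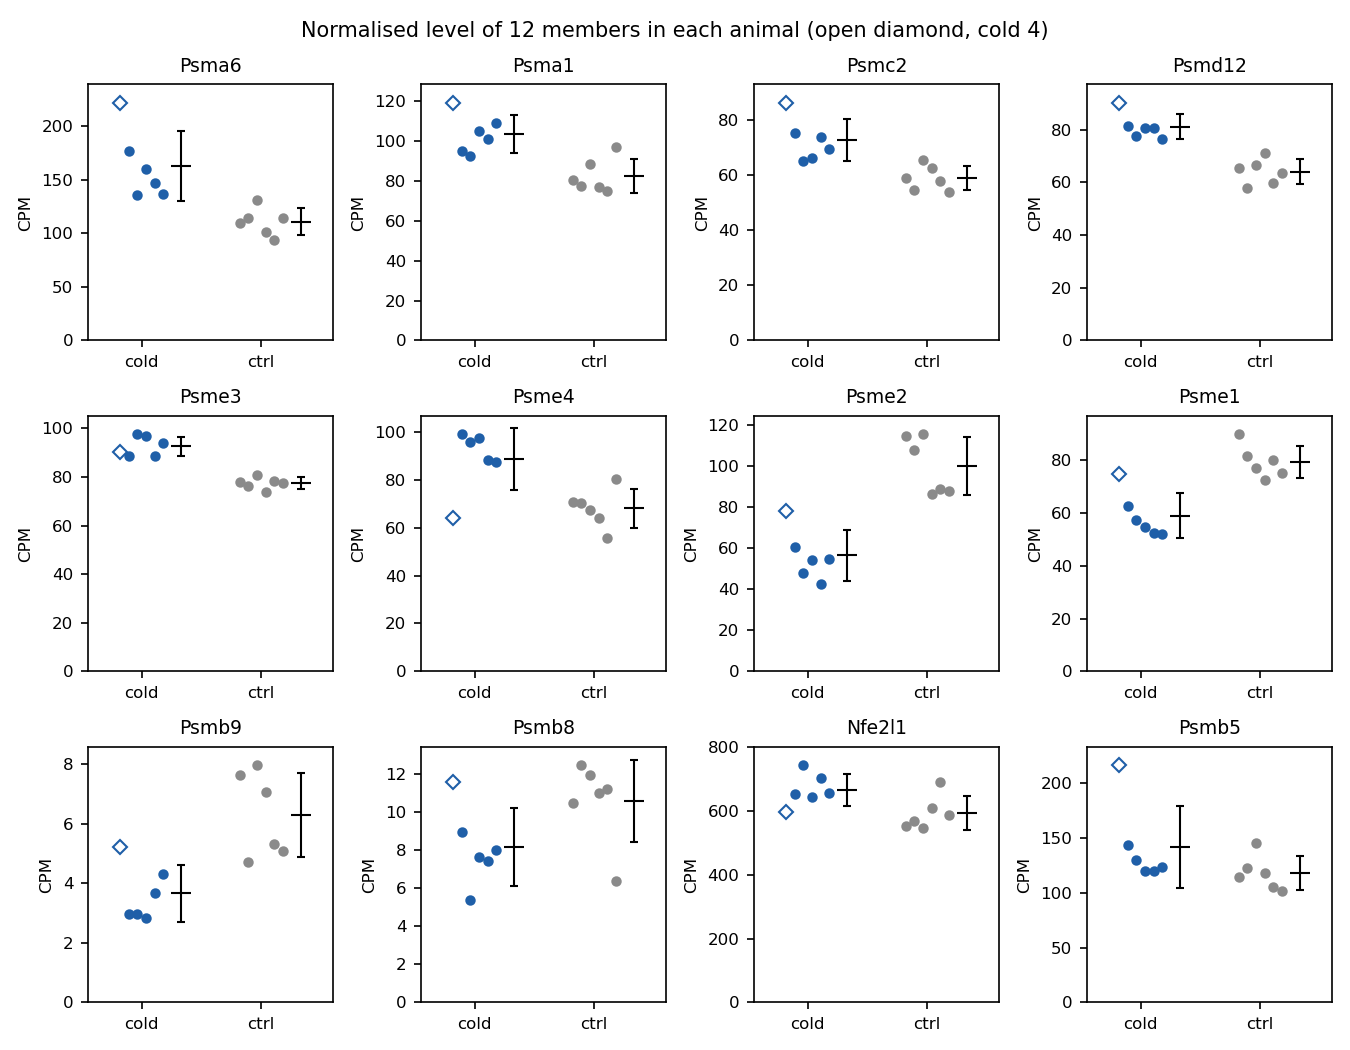
CPM (counts after TMM scaling, y axis) of 12 members in each animal, with cold left of ctrl; the open diamond is cold 4 and the bars are mean and SD (n = 6). Psma6, Psmd12 and Psme3 are higher in every cold animal than in any ctrl animal, and Psme2 is lower.

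Promoters of the members were read for the letters that Nfe2l1 and interferon-induced factors are known to bind, and 4 of them are printed. The antioxidant response element, to which Nfe2l1 binds with its small Maf partners, was searched as TGACNNNGC and the interferon-stimulated response element as GAAA, any 2 bases and GAAA again, both on either strand, in the RefSeq promoters of 300 bases (250 before and 50 after the start, GRCm38.p6). Promoters were held for 45 of the 53 genes (52 promoters). The 4 printed here belong to 2 genes that rose and 2 that fell, each 5′ to 3′, and capitals mark a match.
Psmd12, chr11:107479278-107479577, plus strand: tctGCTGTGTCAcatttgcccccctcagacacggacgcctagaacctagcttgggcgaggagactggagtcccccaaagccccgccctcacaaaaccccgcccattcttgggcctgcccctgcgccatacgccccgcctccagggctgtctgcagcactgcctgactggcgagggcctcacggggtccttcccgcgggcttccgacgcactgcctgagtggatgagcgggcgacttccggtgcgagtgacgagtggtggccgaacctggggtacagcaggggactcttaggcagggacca
Psme4, chr11:30771525-30771824, plus strand: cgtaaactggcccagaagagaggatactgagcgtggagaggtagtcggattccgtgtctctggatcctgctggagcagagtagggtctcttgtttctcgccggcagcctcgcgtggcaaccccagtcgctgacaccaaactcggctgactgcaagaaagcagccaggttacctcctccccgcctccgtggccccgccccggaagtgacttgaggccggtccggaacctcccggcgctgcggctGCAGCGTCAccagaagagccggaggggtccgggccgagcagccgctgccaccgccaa
Psme1, chr14:55578244-55578543, plus strand: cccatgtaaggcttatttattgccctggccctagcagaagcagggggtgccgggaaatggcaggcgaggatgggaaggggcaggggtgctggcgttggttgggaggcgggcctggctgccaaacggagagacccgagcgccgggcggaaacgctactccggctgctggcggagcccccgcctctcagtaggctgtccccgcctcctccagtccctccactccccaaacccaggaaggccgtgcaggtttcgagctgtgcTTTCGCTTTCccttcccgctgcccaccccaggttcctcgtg
Psme2, chr14:55591052-55591351, minus strand: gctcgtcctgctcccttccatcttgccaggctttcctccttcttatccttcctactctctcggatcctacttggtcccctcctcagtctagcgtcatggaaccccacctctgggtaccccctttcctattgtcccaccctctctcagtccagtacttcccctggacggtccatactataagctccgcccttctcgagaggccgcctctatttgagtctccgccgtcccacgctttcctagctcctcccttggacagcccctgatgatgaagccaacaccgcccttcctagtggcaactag
Psmd12 and Psme4 each hold 1 match to the antioxidant letters, Psme1 holds 1 match to the interferon letters, and this window of Psme2 holds no match to the interferon letters. A second window of Psme2, chr14:55590972-55591271, held no match to them either. Of the other genes higher in cold, Psma1, Psma6, Psmc2 and Psme3 held no match to the antioxidant letters. The 2 risen genes printed were thus the only ones found with a match. No promoter was held for Psmd3 and Psmg2. Psmb9, also lower in cold, held no match to the interferon letters. Over all members 11.5% of promoters held the antioxidant letters (Psmb5, Psmb6, Psmc6, Psmd9, Psmd12 and Psme4), against 12.4% of all 32851 promoters. The interferon letters were in 9.62% of member promoters (Psmb3, Psmd4, Psmd9, Psme1 and Psmg4), against 3.44% of all promoters. CCAAT was in 36.5% of member promoters and 37.4% of all promoters. A match is a description of the letters and not of binding.

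Of the factors that assemble the core, Psmg2 passed the test and Pomp, Psmg1, Psmg3 and Psmg4 did not. Psmg2 had a lowest, median and highest level of 7.59, 8.85 and 12.7 CPM in cold and 5.53, 7.09 and 8.78 CPM in ctrl. The groups overlapped, and the log2 fold change of 0.40 ± 0.15 (adjusted p = 0.0462, edgeR) was 0.29 ± 0.13 without cold 4 (adjusted p = 0.0909, edgeR). Leaving out any 1 of cold 4, cold 7, cold 12, cold 15, ctrl 2, ctrl 9, ctrl 10 and ctrl 14 ended that call. Psmg1, its partner chaperone, had 19.9 to 33.3 CPM in cold and 17.7 to 21.4 CPM in ctrl, and its log2 fold change was 0.28 ± 0.11 (adjusted p = 0.0592, edgeR), or 0.17 ± 0.08 without cold 4 (adjusted p = 0.0904, edgeR). It passed in 7 of the 22 alternatives, with an adjusted p down to 0.00262 (edgeR) with the mouse number as a covariate. Pomp, which the maturing core degrades, had 40.02, 46.9 and 68.0 CPM in cold and 37.8, 42.9 and 55.7 CPM in ctrl. Its log2 fold change was 0.14 ± 0.12 (adjusted p = 0.422, edgeR), and 0.02 ± 0.09 without cold 4. Psmc3ip, which is no proteasome part, stood at 2.81 ± 0.829 CPM in cold and 2.17 ± 0.324 CPM in ctrl (SD, n = 6 each; adjusted p = 0.175, edgeR).

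**Figure D5:**
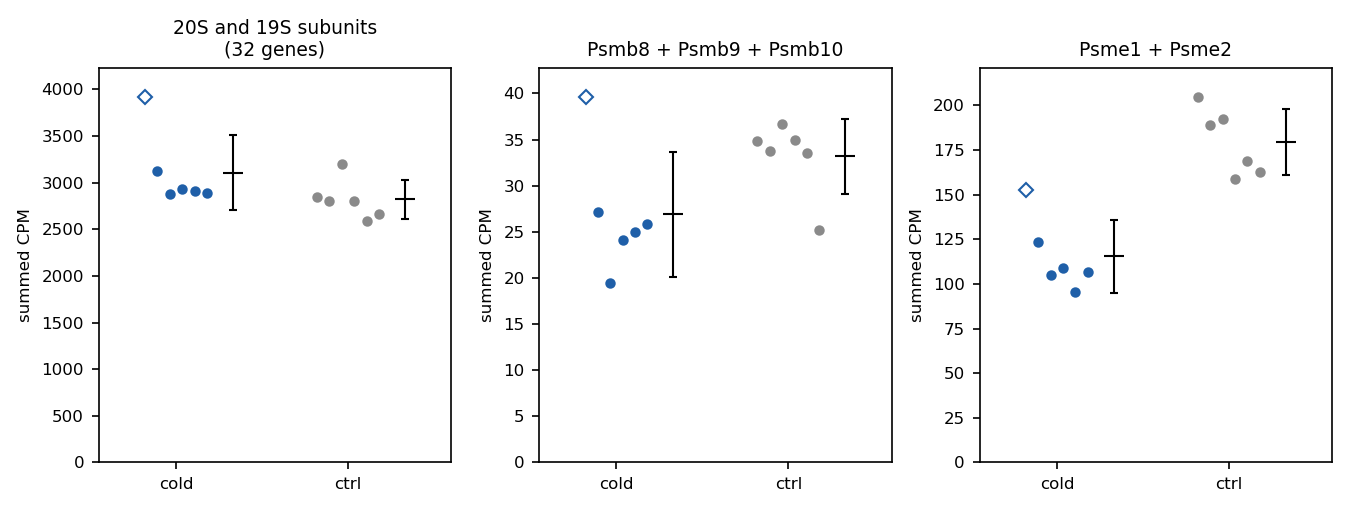
Summed CPM (y axis) of the 32 constitutive 20S and 19S subunits, of Psmb8, Psmb9 and Psmb10, and of Psme1 and Psme2 in each animal, with cold left of ctrl; the open diamond is cold 4 and the bars are mean and SD. Without cold 4 the cold animals hold at most 3121 CPM of the constitutive subunits, at most 27.2 CPM of the immune ones and at most 123 CPM of the activator pair, against ctrl ranges of 2593 to 3206, 25.2 to 36.7 and 159 to 205 CPM.

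Levels were compared between genes per length, as CPM per kb of effective length. Nfe2l1 stood at 227 ± 30.8 CPM per kb in cold and 189 ± 26.0 CPM per kb in ctrl (SD, n = 6 each). Psma6, at 228 ± 34.2 CPM per kb, stood level with it in cold, and Psmb5, at 169.5 ± 19.1 CPM per kb, came next in ctrl. The median over the constitutive beta subunits was 126 CPM per kb in cold and 129 CPM per kb in ctrl, over the alpha subunits 117 and 112, over the ATPases 74.7 and 67.3, and over the non-ATPase subunits of the cap 53.7 and 41.9. The gene at the non-ATPase median was Psmd12 in cold and Psmd7 in ctrl. Psmd12 itself stood at 53.7 CPM per kb in cold and 41.1 in ctrl, and Psmd7 at 44.2 and 41.9. By these medians the core subunits stood above the cap subunits, a description without a test. Psmb9 had 3.07 ± 0.952 CPM per kb in cold and 5.47 ± 1.18 CPM per kb in ctrl, the lowest of the beta subunits tested.

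At the level of transcripts, 140 of the 298 transcripts of these genes had enough reads for a test; 8 were higher in cold and 3 lower (adjusted p under 0.05, edgeR), where 6.21% of 30345 transcripts were higher and 4.06% lower (10.3% in either direction). The 8 were the main coding transcripts of the 8 genes called higher, and the 3 lower ones belonged to Psme1, Psme2 and Psmg4. Transcript usage, the share of each transcript in its gene, was tested in 38 of the genes and changed in 1, Psmg4 (adjusted p = 0.0332, edgeR), where 1.45% of 7233 genes changed. Psmg4-201 held 9.37 to 30.2% of the gene's TPM in cold and 37.8 to 46.7% in ctrl, with means of 18.5 ± 9.91% and 41.2 ± 3.92% (SD, n = 6 each). The groups did not overlap, but Psmg4 is a low gene (4.34 ± 1.09 CPM in cold and 4.65 ± 1.04 CPM in ctrl). The call was lost when any 1 of cold 4, cold 11, cold 15, cold 16, ctrl 2, ctrl 5, ctrl 9, ctrl 10 and ctrl 14 was left out, and with Simes' method. Usage of Psmc4, Psmd6 and Psmd7 passed the test when cold 4 was left out and in no other fit without 1 animal. Ddi2 had too few transcripts with enough reads for a usage test with all animals. It passed in 7 of the 12 fits without 1 animal, those without cold 4 or without any 1 of the ctrl animals. The read threshold for a test asks for fewer libraries when an animal is left out. A transcript can then enter through the animals of 1 group alone, so these passes are not read as a change of usage.

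Genes that act around the proteasome were taken from a list of 41, of which 39 were tested: 10 were higher in cold (25.6%, against 16.2% of all genes), 2 were lower (5.13%, against 15.4%) and 27 did not pass. Among those higher were Ube3c, Ubqln1, Ngly1, Zfand5, Uba1, Ube3a, Mafk and Ecpas. Ube3c, a ligase that extends ubiquitin chains on the proteasome, had a lowest, median and highest level of 50.8, 60.2 and 66.9 CPM in cold and 40.4, 42.4 and 49.7 CPM in ctrl. The groups did not overlap (log2 fold change 0.48 ± 0.08, adjusted p = 0.0002, edgeR). Ubqln1, a shuttle that brings substrates to the cap, had 146, 163 and 180.5 CPM in cold and 115.6, 119.8 and 137 CPM in ctrl, again without overlap (0.41 ± 0.07, adjusted p = 3.70e-04, edgeR). Ngly1, the enzyme that strips sugars from Nfe2l1, averaged 55.3 ± 3.69 CPM in cold and 44.7 ± 5.04 CPM in ctrl (0.30 ± 0.08, adjusted p = 0.00844, edgeR). Zfand5, an activator of the proteasome in muscle, averaged 68.1 ± 10.0 CPM in cold and 54.0 ± 4.09 CPM in ctrl (0.33 ± 0.09, adjusted p = 0.011, edgeR).

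The 2 that fell were Btrc, the substrate receptor of a ubiquitin ligase that also marks Nfe2l1, with 8.13 ± 0.833 CPM in cold and 11.6 ± 2.08 CPM in ctrl (-0.51 ± 0.12, adjusted p = 0.00467, edgeR), and Sqstm1, an autophagy receptor, with 149 ± 23.3 CPM in cold and 190.2 ± 12.8 CPM in ctrl (-0.35 ± 0.10, adjusted p = 0.0103, edgeR). Vcp, the ATPase that pulls Nfe2l1 from the membrane, averaged 269 ± 6.81 CPM in cold and 279.7 ± 19.5 CPM in ctrl (-0.06 ± 0.07, adjusted p = 0.559, edgeR). Nfe2l2, the related factor that answers oxidative stress, averaged 68.3 ± 2.30 CPM in cold and 69.8 ± 4.05 CPM in ctrl (-0.03 ± 0.06, adjusted p = 0.742, edgeR). Neither passed the test. The count of genes higher in the list was 11 without cold 4, where 18.6% of all genes were higher. It was 6 when any 1 of cold 7, cold 15, ctrl 2, ctrl 5 and ctrl 10 was left out (14.4% to 15% of all genes). Without ctrl 2 and cold 15 together the count was 3, where 13.3% of all genes were higher. The larger share of higher genes in the list than over all genes was thus not kept in every fit.

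Most of the genes listed beside the immunoproteasome, for antigen presentation and the interferon response, were lower in cold. Of these 16 genes, 12 were lower in cold and 4 did not pass (edgeR), with a median log2 fold change of -0.39, against 15.4% of all genes lower and a median of -0.01. Tapbp, which loads peptides onto class I molecules, had a lowest, median and highest level of 58.2, 70.5 and 80.4 CPM in cold and 105, 118 and 122 CPM in ctrl (-0.72 ± 0.08, adjusted p = 8.64e-06, edgeR). Erap1, which trims those peptides, had 7.50, 9.98 and 10.6 CPM in cold and 15.3, 16.9 and 23.1 CPM in ctrl (-0.95 ± 0.13, adjusted p = 2.86e-05, edgeR). Tap2, a chain of the peptide transporter, had 31.3, 34.5 and 46.7 CPM in cold and 47.7, 60.6 and 65.4 CPM in ctrl (-0.71 ± 0.10, adjusted p = 5.94e-05, edgeR). Irf1, a transcription factor of the interferon response, had 19.3, 20.2 and 22.5 CPM in cold and 25.4, 29.5 and 32.5 CPM in ctrl (-0.50 ± 0.08, adjusted p = 1.37e-04, edgeR). These 4 were named for the smallest p of the list, and in all 4 the groups did not overlap. Over the list this held for 5 of the 16 genes, and over all genes for 16.3%. Ifngr1, Ifngr2 and Irf8 were among those that did not pass the test. The class I genes H2-D1 and H2-K1, related in sequence so that some reads may be shared between them, were among the 12. Without cold 4, 11 of the 16 were lower. The summed macrophage markers had a median of 70.0 CPM in cold and 60.9 CPM in ctrl, and the summed lymphocyte genes one of 2.43 CPM in cold and 3.04 CPM in ctrl; their part in these falls was not tested.

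Psmb9, Tap1, Psmb8 and Tap2 stand side by side within 34.3 kb of chromosome 17 (GRCm38, 34181987 to 34216321, whole genes). Psmb9 and Tap1 overlap by 212 bases on opposite strands. Tap1, the other chain of the transporter, averaged 9.99 ± 1.85 CPM in cold and 15.5 ± 2.61 CPM in ctrl (SD, n = 6 each). The groups did not overlap (-0.63 ± 0.14, adjusted p = 0.00185, edgeR). Thus 3 of the 4 neighbours fell, where 15.4% of all genes were lower, and Psmb8 did not pass the test. Tap1 and Tap2 are also counted in the antigen presentation list above.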

How the data were processed

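Strand-specific libraries of poly(A) RNA were read as 50 nt pairs, per the labels' protocols. The tools bcl2fastq, cutadapt and Salmon and the build GRCm38 are listed in the submitters' processing notes; the annotation release is not given there. The deposited files give estimated counts and TPM (abundance per effective length, scaled to a fixed total) for 140658 transcripts per animal, and effective lengths, per the file headers. Transcripts were tied to genes of GENCODE M21 by identifier; 521 without a match, with 0.0866% to 0.152% of reads, were not used.

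Estimated counts were summed per gene and rounded. Genes were kept by filterByExpr (minimum count 10), scaled by TMM and compared between the groups by the robust form of the quasi-likelihood test in edgeR (two-sided). P-values were adjusted by Benjamini and Hochberg's method over all genes, with a threshold of 0.05. Animals varied with a biological coefficient of 20.6%. The same steps were used for transcripts, and diffSpliceDGE for usage. Immune to constitutive ratios were compared with exact permutation tests over all 924 assignments of animals. TPM were used only within a gene or library, since in ctrl 2 55.2% of TPM lay in transcripts whose effective length was below 50 nt, against 2.36% to 8.41% in other libraries. The members and lists were chosen with earlier results of these data known.

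The named genes were Nfe2l1, Ddi2, Pomp, Psmb5 to Psmb10, Psme1, Psme2, Psmf1, the smallest p values of each role and list, and Ngly1, Vcp and Nfe2l2. Others were chosen after seeing their values. Some genes of the lists are not reported here by name. The alternatives comprised RLE factors and library totals, DESeq2, limma-voom, no filter, a minimum count of 50, an effective length offset, muscle marker and mouse number covariates, ctrl 2 and cold 15 left out together, ratios of TPM, Simes and limma's diffSplice for usage, and each animal left out. The fits were tested on simulated data. The versions were edgeR 4.0.16 (run in R 4.3.3), DESeq2 1.42.0, limma 3.58.1, pandas 2.3.3 (run in Python 3.11.15), SciPy 1.17.1, NumPy 2.4.6 and matplotlib 3.10.9.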

Additional observations from a re-analysis of the deposited data

Results flagged for a closer look

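Single animals far from the other 5 of their group were looked for in the CPM of the 51 tested genes and in the 3 immune to constitutive ratios, in each group, as a gap to the nearest animal above Dixon's 95% critical value for 6 samples. Of 108 sets of 6, 26 (24.1%) had one, where chance gives about 1 in 20. All 26 were CPM values, and in 22 of them the animal was cold 4. It was the highest cold animal for Pomp 67.96 CPM, Psma2 102 CPM, Psma4 125.9 CPM, Psma7 99.53 CPM, Psmb1 96.04 CPM, Psmb10 22.78 CPM, Psmb3 134.6 CPM, Psmb4 127.6 CPM, Psmb5 215.9 CPM, Psmb6 114.3 CPM, Psmb7 291.3 CPM, Psmc1 149.3 CPM, Psmc3 162.2 CPM, Psmc5 115 CPM, Psmd12 89.96 CPM, Psmd13 75 CPM, Psmd7 83.63 CPM, Psmd8 209.2 CPM, Psmd9 25.63 CPM and Psmg3 14.86 CPM. It was the lowest cold animal for Ddi2 (46.79 CPM, others 68.71 to 78.8 CPM) and Psme4 (64.18 CPM, others 87.32 to 98.83 CPM), which have the longest and the second longest effective length of the members tested. Among ctrl animals, ctrl 14 was the lowest for Psmb8 (6.401 CPM, others 10.48 to 12.46 CPM) and Psmb10 (13.72 CPM, others 16.58 to 17.05 CPM). Ctrl 6 was the highest for Psmd4 (152.1 CPM, others 114.6 to 127.9 CPM) and Psmg4 (6.77 CPM, others 4.108 to 4.368 CPM).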

How the results depend on the processing

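Over the 38 results and their alternatives, 700 of 793 values kept their direction and their side of the threshold. The number of members higher in cold was 16 with library totals and 13 with the mouse number as a covariate, against 8, and ran from 6 to 11 over single animals left out. The number lower ran from 3 to 6, with 6 without cold 4. The genes lower in cold over all genes numbered 1409 with library totals, against 2134. Pathway genes higher in cold numbered 6 with no filter, 5 with the effective length offset, 6 with the mouse number and 3 without ctrl 2 and cold 15. They numbered 10 in the main fit and 6 to 11 over single animals left out. Of all genes 7.3% were higher with no filter, 13.7% with the offset, 16.7% with the mouse number and 13.3% without ctrl 2 and cold 15. Pathway genes lower in cold numbered 1 with library totals, against 2. The log2 fold change of Nfe2l1 ran from 0.14 to 0.22 over single animals left out. Psmb6 turned from negative to positive with library totals (0.0327), with the mouse number (0.0674) and without ctrl 6 (0.0036; -0.195 to 0.0036 over single animals left out), Psmb10 with the effective length offset (0.00879), and Psmd5 turned negative with that offset (-0.10); none of these passed the test. Member transcripts higher in cold numbered 2 without ctrl 2 and cold 15 and 3 to 9 over single animals left out, against 8; those lower numbered 1 and 1 to 4, against 3. Genes with changed usage numbered 0 without ctrl 2 and cold 15, 0 with Simes' method and 0 to 4 over single animals left out, against 1. The cause of these changes was not tested. No paired analysis was possible because no mouse number occurs in both groups. Counting error is widest for the low genes, such as Psme2b with 2 to 32 reads per library; depth itself was not varied.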
